A study of Mus musculus with 28 samples.

Results

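Endothelial cells line blood and lymph vessels, and those described here came from the ovaries of juvenile mice. They were selected by a fixed rule from 4 single-cell libraries. A barcode was kept if it had at least 1000 genes and at most 20% mitochondrial UMIs (unique molecular identifiers, each counted as 1 captured RNA molecule), at least 4 of the 6 endothelial genes *Cldn5*, *Flt1*, *Pecam1*, *Cd93*, *Tie1* and *Ecscr*, and fewer than 3 of the 5 pericyte genes *Rgs5*, *Higd1b*, *Ndufa4l2*, *Vtn* and *Kcnj8*. The rule kept 888 of the 38274 barcodes that passed the limits on genes and mitochondrial UMIs, or 2.32%. The females were 7 days old, wild-type C57BL/6J (WT) or homozygous for the deletion allele Chek2tm1b(EUCOMM)Hmgu (*Chek2*-/-), which the mice carry in every tissue. They received 0.5 Gy of gamma rays from a cesium source (IR) or a sham exposure at 0 Gy (nonIR), and their ovaries were taken 6 h later. Each of the 4 conditions was 1 library made from the pooled ovaries of 4 females, so the animals within a condition cannot be told apart and a difference between conditions has no replicate check. A second experiment measured RNA from whole ovaries in 24 libraries, 6 for each of the same 4 conditions, and it supplied every test given here. Per the study's methods irradiated females were 7 to 9 days old, and each RNA sample came from paired ovaries. CHEK2 is a kinase that carries the DNA damage signal to p53, and the design asks which responses to irradiation depend on it.

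Endothelial cells form the inner wall of vessels. They are joined by VE-cadherin (*Cdh5*) and claudin 5 (*Cldn5*), and they are instructed by growth factors of the VEGF and angiopoietin families through the receptors KDR, FLT1, FLT4, TIE1 and TEK. The ovary is among the few organs in which vessels keep growing in the adult, because each growing follicle recruits a capillary bed of its own. After DNA damage p53 binds its target genes, of which *Cdkn1a* blocks the cell cycle, *Mdm2* limits p53 itself and *Bax* promotes apoptosis.

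The promoters of genes that defined these cells and of genes that carried their response to irradiation are shown first, as the 250 bases before the RefSeq start on GRCm38.p6, read 5′ to 3′ on the gene's strand. Endothelial genes are commonly bound by factors of the ETS family, and AGGAAG is a short form of the ETS site. The promoters of *Flt1* (chr5:147726012-147726261, minus strand), the VEGF receptor that acts largely as a decoy, and *Tie1* (chr4:118489850-118490099, minus strand), an orphan receptor of the angiopoietin system, are given because both belong to the selection rule. Capitals mark AGGAAG or, where the match lies on the other strand, CTTCCT. In *Flt1* the matches begin 129 and 53 bases before the start, and in *Tie1* the match begins 219 bases before it.
Flt1: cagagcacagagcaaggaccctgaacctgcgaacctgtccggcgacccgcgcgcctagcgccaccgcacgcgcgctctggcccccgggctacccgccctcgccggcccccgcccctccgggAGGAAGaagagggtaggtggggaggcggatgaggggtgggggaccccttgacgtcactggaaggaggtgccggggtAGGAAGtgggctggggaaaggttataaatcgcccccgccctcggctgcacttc
Tie1: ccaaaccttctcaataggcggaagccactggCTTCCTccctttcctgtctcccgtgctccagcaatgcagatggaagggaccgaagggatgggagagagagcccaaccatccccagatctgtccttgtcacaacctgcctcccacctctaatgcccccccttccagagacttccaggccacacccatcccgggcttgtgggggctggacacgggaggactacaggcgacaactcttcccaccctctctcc
The motif was found on either strand in 29.5% of all 32851 RefSeq promoters of this length. Of the 40 endothelial genes followed below, 20 had a RefSeq promoter, and 13 of their 25 promoters (52%) held the motif. The third gene of the rule with a promoter, *Cldn5*, had no match in this window. AACAAT, a short form of the SOX site, was found in 9.42% of all promoters and in 4 of these 25 (16%).

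The next set belongs to p53 targets that were higher in irradiated WT cells: *Cdkn1a* (chr17:29090729-29090978, plus strand), *Ccng1* (chr11:40755287-40755536, minus strand), *Bax* (chr7:45466899-45467148, minus strand) and *Exoc4* (chr6:33248878-33249127, plus strand). Capitals mark matches to the p53 half-site, which reads the same on both strands. They begin 73 and 51 bases before the start of *Cdkn1a*, and 185, 201 and 203 bases before the starts of *Ccng1*, *Bax* and *Exoc4*. These promoters are shown because they hold a match. A second RefSeq promoter of *Cdkn1a*, which begins at another start, and the promoters of *Phlda3* and *Eda2r* held none.
Cdkn1a: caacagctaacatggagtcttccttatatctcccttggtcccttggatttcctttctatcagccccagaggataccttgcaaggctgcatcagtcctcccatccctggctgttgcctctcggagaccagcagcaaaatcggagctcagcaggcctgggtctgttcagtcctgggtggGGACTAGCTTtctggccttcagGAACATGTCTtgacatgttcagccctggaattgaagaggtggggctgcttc
Ccng1: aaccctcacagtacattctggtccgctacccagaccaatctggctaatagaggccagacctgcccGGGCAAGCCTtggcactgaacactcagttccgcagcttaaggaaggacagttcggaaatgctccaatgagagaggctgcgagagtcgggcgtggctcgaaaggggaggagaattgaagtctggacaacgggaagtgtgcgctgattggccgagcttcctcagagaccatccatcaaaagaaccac
Bax: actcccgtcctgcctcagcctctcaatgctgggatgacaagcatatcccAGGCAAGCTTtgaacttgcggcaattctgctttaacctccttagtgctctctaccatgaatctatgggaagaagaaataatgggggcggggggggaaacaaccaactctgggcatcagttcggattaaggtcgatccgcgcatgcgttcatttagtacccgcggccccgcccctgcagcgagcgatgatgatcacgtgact
Exoc4: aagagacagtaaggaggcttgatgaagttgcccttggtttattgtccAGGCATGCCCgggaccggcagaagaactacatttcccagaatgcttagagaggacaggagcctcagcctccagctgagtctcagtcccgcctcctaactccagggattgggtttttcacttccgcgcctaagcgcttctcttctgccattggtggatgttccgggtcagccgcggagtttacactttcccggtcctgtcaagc
The half-site was found in 7.13% of all promoters and in 10 of 41 promoters (24.4%) of the 29 p53 targets with a RefSeq promoter. A full site of a pair of adjoining half-sites was found in 3 promoters of all genes and in none of the targets. A match is a string of letters and does not show binding, and p53 often binds outside such a window.

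The selected barcodes numbered 231 of 9666 in WT nonIR (2.39%, exact binomial 95% interval 2.09 to 2.71), 300 of 10345 in WT IR (2.90%, 2.59 to 3.24), 181 of 9091 in *Chek2*-/- nonIR (1.99%, 1.71 to 2.30) and 176 of 9172 in *Chek2*-/- IR (1.92%, 1.65 to 2.22). The share was highest in the irradiated WT library, and the shares of the pair of *Chek2*-/- libraries lay within each other's intervals. All intervals given for single cells cover counting error only, since each condition was 1 library. Of the selected barcodes, 9 also occurred in another library.

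Part of the selected barcodes held RNA of another cell type. Clustering the 888 barcodes gave 10 subclusters, of which 4 were led by genes of stroma (74 barcodes), granulosa cells (57), oocytes (18) or erythroid cells (17). These 166 barcodes were 18.7% of the selection but held 50.2, 38.3, 32.4 and 30.2% of its UMIs in WT nonIR, WT IR, *Chek2*-/- nonIR and *Chek2*-/- IR, the order used for every set of 4 values below. A caller of doublets, barcodes shared by a pair of cells, marked 60 of the 74 stroma-led, 41 of the 57 granulosa-led and 10 of the 17 erythroid-led barcodes, and 4 of the other 722. It marked none of the oocyte-led barcodes, which were the deepest, with a median of 205559 UMIs. There were 10, 5, 2 and 1 of these, and they alone held 34.5, 18.9, 11.9 and 4.12% of the selected UMIs. Their summed level of the 6 rule genes was 26.4, 86.0, 21.7 and 20.4 counts per 1e6 UMIs (CPM), against 3593, 3556, 3289.7 and 3786 CPM in the 722 cells outside the 4 subclusters and 14.8, 13.8, 8.09 and 8.96 CPM in all barcodes outside the selection. The oocyte-led barcodes thus met the threshold of 4 genes at a summed level far below that of the 722 cells and above that of unselected barcodes in each library. This is a description, since the rule used these 6 genes.

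**Figure D1:**
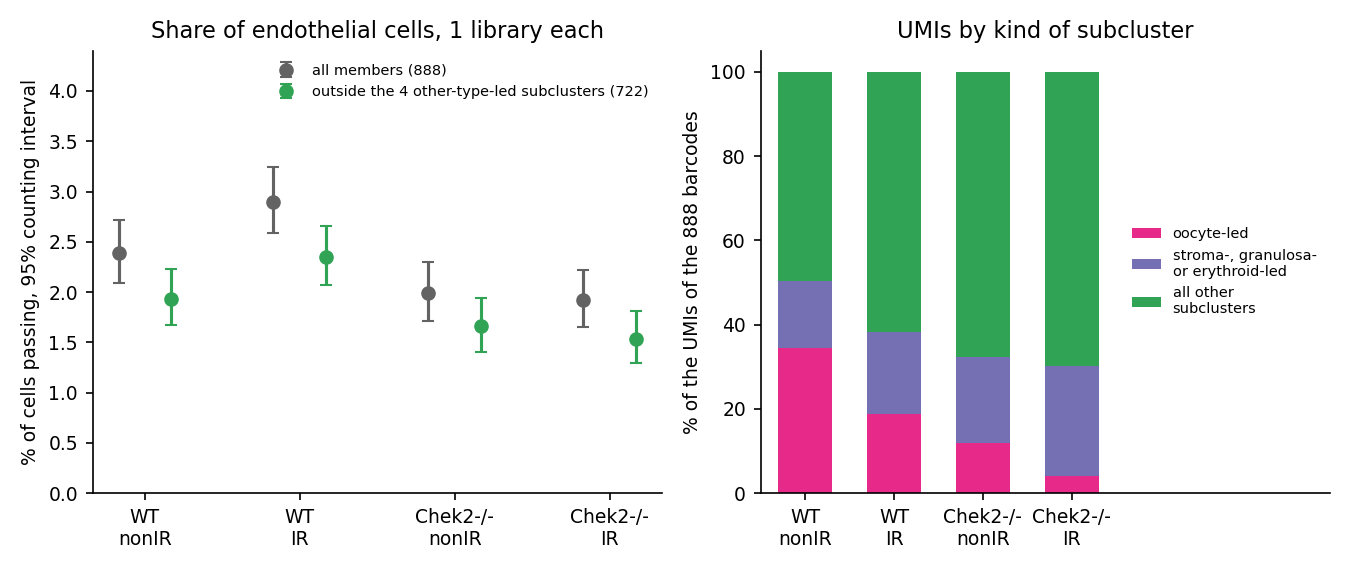
Left, the share of barcodes that were endothelial in each of the 4 libraries (y axis, % of barcodes passing the limits), for all 888 and for the 722 outside the 4 subclusters led by another cell type, with 95% counting intervals. Right, how the UMIs of the 888 barcodes divided between the oocyte-led subcluster, the other 3 subclusters led by another type, and the rest (stacked bars, % of UMIs). In WT nonIR the oocyte-led part was 34.5% and in *Chek2*-/- IR 4.12%.

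The values at the threshold differed between libraries. Barcodes with exactly 4 of the 6 genes numbered 15, 36, 21 and 5, with median depths of 146190, 6049, 4458 and 4813 UMIs. Barcodes with exactly 3, just outside, numbered 26, 36, 9 and 19, with median depths of 201069, 7359.5, 186564 and 166495 UMIs. In 3 of 4 libraries the barcodes just outside were thus very deep, and the 34 endothelial markers that the rule did not use were represented by a median of 7, 12, 5 and 7 genes in them. Barcodes with all 6 rule genes had a median of 28, 28, 28.5 and 28 of the 34, and those with exactly 4 a median of 12, 16, 20 and 18. For these reasons levels and ratios below refer to the 722 cells outside the 4 subclusters, a choice made after the values had been seen, and counts over all 888 barcodes are printed beside the counts over all genes and, where they are used, beside the counts of lists. These 722 cells were 187, 243, 151 and 141 per library, or 1.93, 2.35, 1.66 and 1.54% of the barcodes that passed, with median depths of 10747, 11410, 12576 and 15090 UMIs. Their 13668336 UMIs set the precision: a count of 0 allowed up to 0.914, 0.717, 1.04 and 0.902 CPM (3 counts).

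Over all 888 barcodes the extreme ratios included globin, oocyte and granulosa genes, and leading genes of the lymphatic-like subcluster described below. In WT IR against WT nonIR the smallest were those of the globin genes *Hbb-bt*, *Hbb-bs*, *Hba-a2* and *Hba-a1* (0.0124 to 0.0188) and of *Crabp1* (0.168). WT IR held no erythroid-led barcode and WT nonIR held 5. The largest were *Akr1c18* (38.5), *Eif4e1b* (9.71), *Mt1* (8.75), *Ccl21a* (7.10) and *9930012K11Rik* (4.62), of which *Akr1c18* was at 0.560 and *9930012K11Rik* at 0.784 in the 722 cells. In *Chek2*-/- IR against nonIR the smallest were oocyte genes, *Khdc3*, *Zar1*, *Npm2*, *Oas1e* and *Nlrp5* (0.0142 to 0.0349), and among the largest were *Gm2044* (4.16), the granulosa genes *Amh* (3.68) and *Inha* (2.68), and *Tenm4* (2.78). Between the unirradiated genotypes the largest (*Chek2*-/- over WT) were *Lyve1*, *Scn3a*, *Ccl21a*, *Gap43* and *Mmrn1* (13.8 to 66.3), and the smallest *Gm2044*, *Rhd*, *Gm47448*, *Gm37350* and *Macrod1* (0.141 to 0.167).

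Marker levels in the 722 cells are a description, since the rule required endothelial genes and the 4 subclusters were removed for their stroma, granulosa, oocyte or erythroid markers. The summed level of the 34 endothelial markers outside the rule was 12445, 11982, 11053 and 11653 CPM, against 290.1, 311, 266 and 250.2 CPM in unselected barcodes. Across these 34 genes the level in the 722 cells was 6.87 to 412 times that in unselected barcodes (lowest of the 4 libraries for each gene). The summed level of the 7 granulosa markers was 216, 193, 192 and 201 CPM, against 1749, 1696, 2057 and 2167 CPM in unselected barcodes, and that of the 6 stroma markers was 163, 181, 142 and 179 CPM against 3374, 3407, 3298 and 2853 CPM. Markers of oocytes (98.7, 41.6, 27.8 and 57.7 CPM), erythroid cells (154, 69.3, 107 and 297 CPM) and smooth muscle (60.3, 28.2, 30.9 and 24.4 CPM) were highest in WT nonIR or *Chek2*-/- IR. The 5 rule pericyte genes summed to 6.70, 4.54, 14.3 and 5.41 CPM, the 5 other pericyte genes to 18.3, 15.0, 19.1 and 18.6 CPM and the 6 epithelial genes to 8.23, 14.1, 10.1 and 7.52 CPM. Macrophage markers summed to 9.45, 9.08, 15.6 and 7.82 CPM, with 2, 4, 3 and 5 of the 8 listed at 0. The part of such RNA in the results below was not tested.

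Genes of endothelial identity differed little between the 4 libraries. For 39 of the 40 endothelial genes the highest and the lowest library differed by less than 1.5-fold, and the median over the 40 was 1.24-fold. The rule genes are among the 40, and the selection required most of them. This measure was not made over all genes. In the comparisons of libraries given below, 0.587 to 1.74% of all genes with at least 200 UMIs passed 1.5-fold in each direction in these cells. Small differences were thus not particular to identity genes. VE-cadherin (*Cdh5*), which holds neighbouring cells together, was at 886, 847, 877 and 890.00 CPM. The main VEGF receptor *Kdr* was at 517, 508, 491 and 552 CPM and *Egfl7*, a secreted factor of vessel assembly, at 2059.7, 2020.2, 1429 and 1652 CPM. The exception was *Sox18*, a transcription factor of vessel and lymphatic development, at 192, 199, 299 and 203 CPM. Apart from the rule genes, the genes that exceeded unselected barcodes most, by the lowest of the 4 libraries, were *Ccl21a* (766-fold), *Mmrn1* (637-fold), *Aplnr* (412-fold), *Fam167b* (371-fold) and *Gm525* (360.1-fold), followed by *Gm32688*, *Myct1*, *Nxpe2*, *Ces2e* and *Arhgef15* (302- to 330.1-fold). *Ccl21a* and *Mmrn1*, a chemokine and an extracellular protein of lymphatic vessels, led this order although few of the cells carried them.

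Outside the 4 mixed subclusters the cells formed 6 subclusters, which are described by their leading genes without a test, since those genes defined them. Values in this paragraph are CPM of the summed UMIs of a subcluster over the 4 libraries. Subcluster 1 (348 cells) was led by *Icam1*, an adhesion molecule for leukocytes, at 315 CPM, with *Tgfbi*, *Gpr182*, *Tmem35a* and *Gbp4*. Subcluster 3 (92 cells) had *Sez6l2*, *Ccdc42*, *Clec1a* and *Kcna5* among its leading genes. It also held the highest *Gpihbp1*, a capillary protein that anchors lipoprotein lipase, at 965 CPM, and *Apln*, a peptide of sprouting tip cells, at 119.6 CPM. Subcluster 7 (48 cells) was led by *Slco1a4*, *Edn1*, *Ctsh*, *Cp* and *Pcdh7*. Its level of *Vwf*, the clotting factor of larger vessels and veins, was 294 CPM, with *Plvap*, a protein of fenestrated endothelium, at 606 CPM.

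Subcluster 5 (59 cells) was arterial-like by the listed markers. It was led by *Cxcl12*, *Sema3g*, *Gja4*, *Stmn2* and *8430408G22Rik*, of which *Gja4* encodes a connexin of arterial endothelium, and the Notch ligand *Dll4* was at 257 CPM in it. Summed over the 12 arterial genes, its level was 2257, 2169, 3047 and 3246 CPM in the 4 libraries, against 379.6, 369.6, 391 and 444 CPM in the rest of the 722 cells. Subcluster 2 (161 cells) was the dividing one, led by *Pimreg*, *Pclaf*, *Mki67*, *Top2a* and *Kif15*. Subcluster 10 (14 cells) was lymphatic-like, led by *Ccl21a* (7979.8 CPM), *Lyve1* (1400.04 CPM), *Mmrn1*, *Ptx3* and *Scn3a*. The doublet caller marked 2 of the 14, both among the 5 such cells of the WT libraries. In these 14 cells *Prox1*, the factor that sets lymphatic identity, was at 724 CPM and the lymphatic VEGF receptor *Flt4* at 638 CPM. The blood-vessel genes *Flt1* (4.86 CPM), *Cd93* (19.4 CPM) and *Aplnr* (0 CPM) were low or at 0 in them. *Flt1* and *Cd93* are rule genes, so a lymphatic cell without them had to show all the others to be selected. Whether the rule left out shallower lymphatic cells was not tested. Per library the 6 subclusters, in the order 1, 2, 3, 5, 7 and 10, held 95, 34, 24, 15, 17 and 2 cells in WT nonIR, 126, 55, 28, 18, 13 and 3 in WT IR, 76, 32, 20, 10, 8 and 5 in *Chek2*-/- nonIR, and 51, 40, 20, 16, 10 and 4 in *Chek2*-/- IR. Differences in these sizes between conditions are not read as a response, since leading genes such as *Icam1* differed between the libraries and were used to form the groups.

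**Figure D2:**
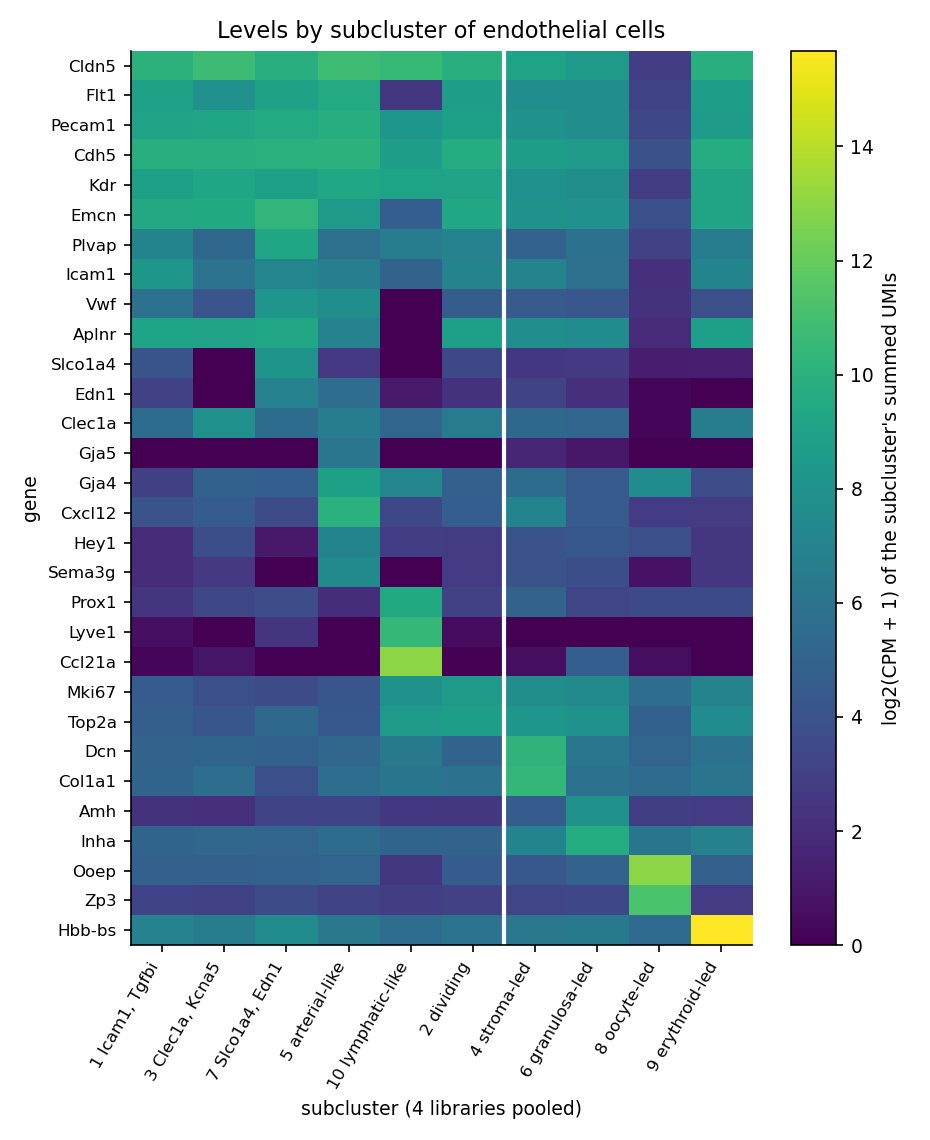
Level of 30 genes (rows) in the 10 subclusters of the 888 barcodes (columns), as log2 of CPM + 1 of the UMIs summed over the 4 libraries. Left of the white line are the 6 subclusters of the 722 cells, where *Ccl21a* reaches its highest level in the lymphatic-like one. Right of it are the 4 led by another cell type, with *Ooep* highest in the oocyte-led and *Hbb-bs* in the erythroid-led one.

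In irradiated WT endothelial cells several targets of p53 were higher. Levels were compared as the ratio of CPM of summed UMIs with 0.5 added to each sum, given with an exact Poisson 95% interval, and a gene with at least 200 UMIs over both libraries was counted as higher or lower from 1.5-fold on. Over all 888 barcodes 632 of 8200 genes were counted in WT IR against WT nonIR, 180 higher (2.2%) and 452 lower (5.51%). Over the 722 cells 64 of 5349 were counted, 32 higher (0.598%) and 32 lower (0.598%), so most of the all-barcode count went with the subclusters led by another cell type. Of the 64, 32 were also counted in the same direction over all barcodes. Of 37 listed p53 targets 15 had enough UMIs in the 722 cells, 8 of these were higher and 0 lower. *Cdkn1a*, *Ccng1*, *Aen* and *Ckap2* had under 100 UMIs in WT nonIR and reached the limit through WT IR, so the filter favoured genes that were higher there, and this count is a description. Over all 888 barcodes 25 had enough UMIs, 15 were higher, and *Ddb2* and *Rrm2b* were lower.

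*Cdkn1a*, which encodes the cell cycle inhibitor p21, was at 18.3, 93.6, 17.7 and 31.3 CPM in the 722 cells. Its ratio was 5.09 (3.89 to 6.84) in WT and 1.76 (1.25 to 2.52) in *Chek2*-/- cells, where it had under 200 UMIs. Both intervals lay above 1, and they did not overlap. *Bax*, the effector of mitochondrial apoptosis, was at 135, 319.9, 132 and 179 CPM, with a ratio of 2.37 (2.13 to 2.64) in WT and 1.36 (1.19 to 1.55) in *Chek2*-/-. *Ccng1*, a cyclin that p53 induces, was at 16.5, 47.1, 14.3 and 16.2 CPM, with ratios of 2.84 (2.11 to 3.94) and 1.14 (0.745 to 1.75). Like *Cdkn1a* and *Bax*, it had intervals in WT and *Chek2*-/- cells that did not overlap. *Phlda3*, an inhibitor of AKT, was at 38.4, 103, 58.8 and 55.0 CPM, with ratios of 2.69 (2.20 to 3.31) and 0.936 (0.756 to 1.16). *Exoc4*, a subunit of the exocyst, was at 56.1, 116, 54.6 and 66.2 CPM, with ratios of 2.07 (1.74 to 2.47) and 1.21 (0.983 to 1.497). The other 3 counted as higher in WT were the mitotic protein gene *Ckap2* (2.42), the nuclease gene *Aen* (1.83) and *Ei24* (1.57), at ratios of 1.42, 0.927 and 1.09 in *Chek2*-/- cells.

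Other p53 targets were not counted. *Mdm2*, the ubiquitin ligase that degrades p53, was at 31.1, 44.9, 39.3 and 30.98 CPM, with a WT ratio of 1.44 (1.13 to 1.86). *Eda2r*, a death receptor, had 3, 39, 2 and 2 UMIs in the 722 cells, a WT ratio of 8.85 (3.24 to 51.5) that was not counted because of its low total. *Epha2* and *Pmaip1*, at 3.78 and 8.37 in unselected barcodes, were at 1.04 (0.772 to 1.42) and 0.958 (0.211 to 4.94) in the endothelial cells, where neither had enough UMIs to be counted. Unselected barcodes, which are mostly stroma and granulosa cells, had WT ratios of 8.34 for *Cdkn1a*, 2.18 for *Bax*, 3.89 for *Ccng1*, 2.42 for *Phlda3* and 2.44 for *Exoc4*. *Cdkn1a* and *Ccng1* thus had lower ratios in endothelial cells than in the rest, *Bax* and *Phlda3* similar ones, with no test of the difference possible. Higher p53 targets in irradiated WT were therefore found outside endothelium too. In *Chek2*-/- cells 0 of 10 p53 targets with enough UMIs were counted in either direction, and since *Cdkn1a* and *Ccng1* did not pass the filter there, the count is not compared with that in WT. Over all 888 barcodes 16 had enough UMIs, *Cdkn1a* was counted as higher (1.82) and *Aen* as lower (0.571).

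**Figure D3:**
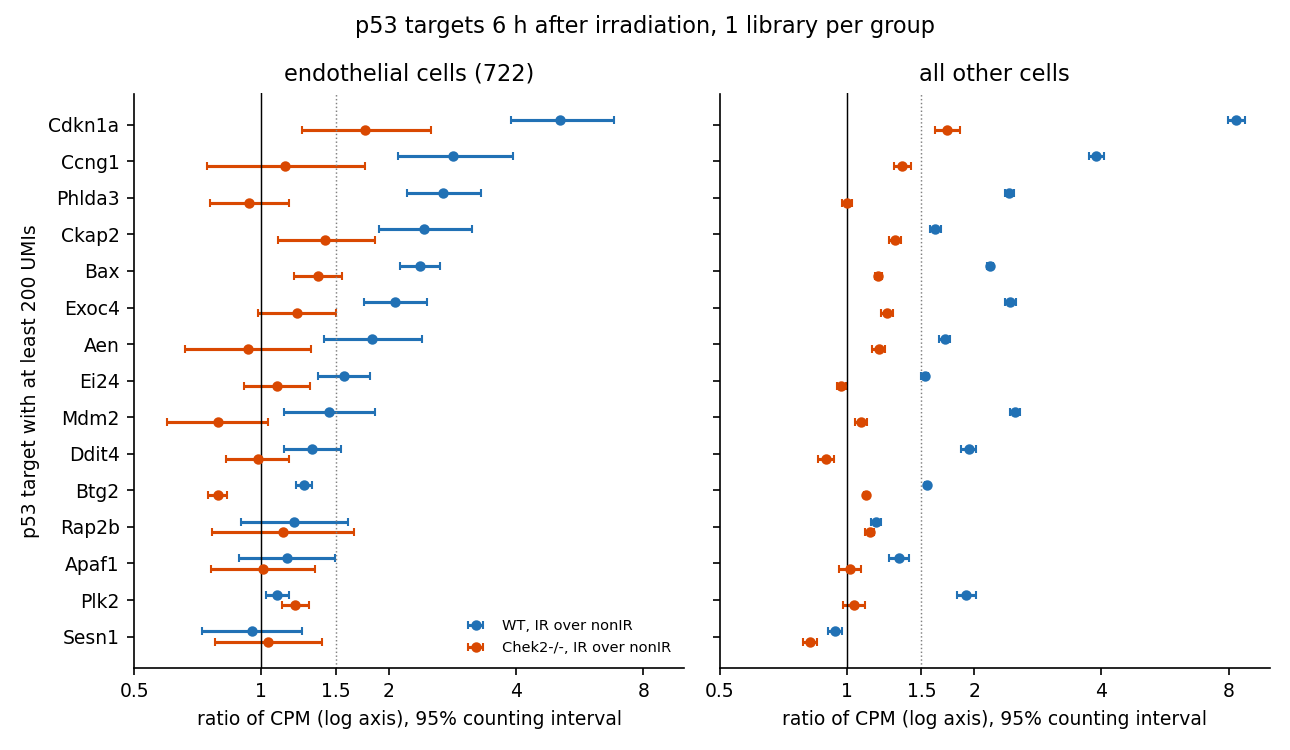
Ratio of IR over nonIR CPM (x axis, log scale, with 95% counting intervals) for the 15 p53 targets with at least 200 UMIs in WT, in the 722 endothelial cells (left) and in all unselected barcodes (right). Blue points are WT and orange points *Chek2*-/-, 1 library per condition, and the dotted line marks 1.5-fold. In endothelial cells 8 blue points lie beyond the line, led by *Cdkn1a* at 5.09, while *Cdkn1a* at 1.76 is the orange point farthest to the right.

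Once depth was made equal, shares of cells with a UMI were highest in irradiated WT cells for *Cdkn1a*, *Bax*, *Ccng1* and *Phlda3*. Each cell was thinned to 4000 UMIs, which left out 8, 34, 13 and 3 shallower cells and kept 179, 209, 138 and 138. *Cdkn1a* was then found in 3.35, 22.5, 7.25 and 9.42% of endothelial cells, against 13.4, 46.1, 17.2 and 36.2% before thinning. In unselected barcodes, thinned likewise, it was found in 1.95, 21.1, 1.84 and 3.03%. The share in irradiated WT endothelial cells was thus close to that in the other cells of its library. *Bax* was found in 44.7, 69.4, 39.9 and 51.4%, *Ccng1* in 3.91, 18.2, 5.07 and 4.35% and *Phlda3* in 11.2, 32.5, 14.5 and 15.2% of thinned endothelial cells. The other 3 libraries did not keep the order of their CPM in every gene, and no order is read among them. Free RNA can leave UMIs of these genes in any cell, and its share was not measured.

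The 8 counted targets were also summed within each subcluster. They were picked for being higher over these same 722 cells, so their ratios are a description. The summed level of the 8 counted targets had a WT ratio of 2.44 (2.21 to 2.69) in subcluster 1, 2.60 (2.09 to 3.26) in subcluster 3 and 3.04 (2.27 to 4.09) in subcluster 7. The ratio was 1.91 (1.51 to 2.44) in the arterial-like, 3.55 (2.05 to 7.28) in the lymphatic-like and 1.98 (1.78 to 2.20) in the dividing cells. The lymphatic-like ratio rests on 12 UMIs in 2 WT nonIR cells and 155 UMIs in 3 WT IR cells. Of these cells 2 were marked by the doublet caller, and the interval leaves out the spread between cells. The 8 were picked by their WT values alone, so WT ratios above those of *Chek2*-/- follow in part from that choice. No difference between the genotypes is read from these sums. In the arterial-like cells the *Chek2*-/- ratio was 1.16 (0.875 to 1.55). The *Chek2*-/- interval lay above 1 in subcluster 1 (1.39 (1.20 to 1.61)) and included 1 in the other 5. The sum over all 37 listed targets, which includes the 8, was not limited to genes picked this way. Its WT ratio was 1.36 (1.31 to 1.41) in subcluster 1, 1.68 (1.52 to 1.85) in subcluster 3, 1.34 (1.15 to 1.56) in subcluster 7, 1.16 (1.05 to 1.28) in the arterial-like, 2.83 (1.94 to 4.398) in the lymphatic-like and 1.505 (1.42 to 1.59) in the dividing cells. The *Chek2*-/- ratio of this sum was 1.11 (1.05 to 1.18), 1.14 (1.02 to 1.27), 0.698 (0.615 to 0.791), 0.845 (0.760 to 0.941), 1.16 (1.01 to 1.33) and 0.908 (0.855 to 0.965) in the same order. The ratio of the sum over 37 genes thus lay above 1 in all 6 subclusters in WT, least in the arterial-like cells. It lay on either side of 1 in *Chek2*-/-. Because the sum holds the 8 picked genes, it is a description too. In subcluster 7 the 8 were at 310 and 945 CPM in WT nonIR and WT IR, and all 37 at 1695 and 2277 CPM. In the arterial-like cells the 8 were at 439 and 839 CPM, and all 37 at 2935 and 3396 CPM. Most or all of the difference in these subclusters thus lay in the 8 genes. The *Cdkn1a* ratio in WT was 3.36 (2.29 to 5.20) in the dividing cells and 6.86 (4.73 to 10.6) in all the others together.

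**Figure D4:**
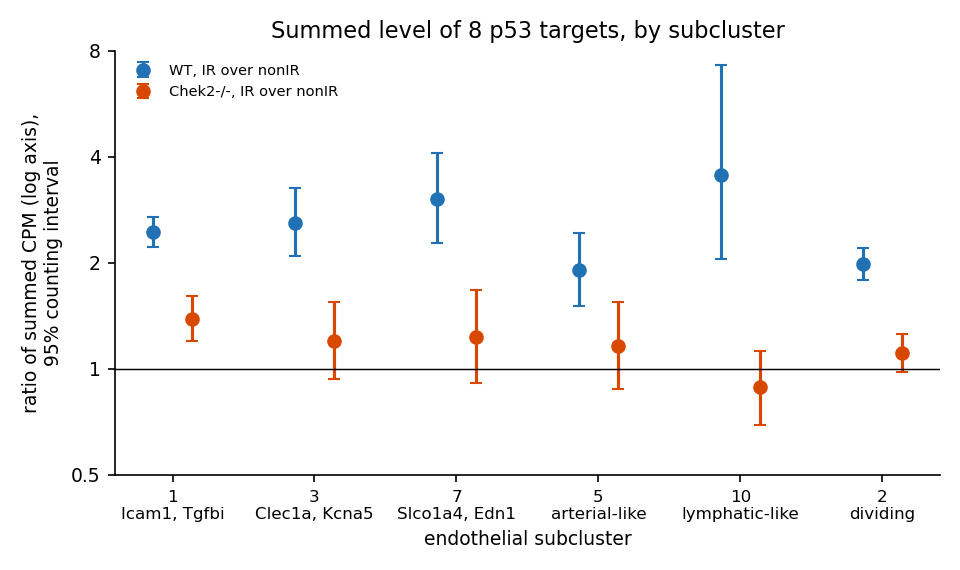
Ratio of IR over nonIR in the summed CPM of the 8 p53 targets counted as higher in WT (y axis, log scale, 95% counting intervals), for the 6 subclusters of the 722 cells (x axis), in WT (blue) and *Chek2*-/- (orange). All 6 WT points lie between 1.91 and 3.55, above the *Chek2*-/- point of the same subcluster. The 8 genes were chosen for high WT ratios over these cells, which favours WT over *Chek2*-/- here. The lymphatic-like WT point rests on 2 nonIR and 3 IR cells.

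Beyond p53 targets few listed genes were counted in irradiated WT cells. *Cxcl1*, a chemokine for neutrophils, was at 43.9, 86.7, 90.4 and 100.8 CPM, a WT ratio of 1.97 (1.62 to 2.41), and was the 1 gene of 6 with enough UMIs in the list of endothelial activation to be counted as higher. Of 20 immediate early genes only *Ier5* was counted (1.58), of 18 basement membrane genes only the matrix protease *Mmp2* (1.57), and of 15 genes of G2 and mitosis *Ube2c* (1.58) and *Cdc20* (1.62), which help cells leave mitosis. These lists gave, over all 888 barcodes, 4 of 7 (*Cxcl1*, *Cxcl10*, *Relb* and *Icam1*), 4 of 21 (*Ier5*, *Atf3*, *Gadd45b* and *Ier3*), 2 of 18 (*Lama5* and *Mmp2*) and 1 of 18 (*Cdc20*), all higher. Among 7 genes of haemostasis and vessel tone *Vwf* and *Procr* were lower. *Vwf* was at 101.2, 58.3, 66.4 and 48.7 CPM, with a ratio of 0.576 (0.486 to 0.682), and *Procr*, the receptor that activates protein C, was at 53.6, 32.2, 52.2 and 54.1 CPM, with a ratio of 0.602 (0.477 to 0.757). In this list 0 of 9 were counted over all 888 barcodes. In unselected barcodes, where it is rarer, the *Procr* ratio was 3.74. In irradiated WT whole ovaries edgeR called 0 of 18 endothelial activation, 0 of 23 immediate early and 0 of 18 G2 and mitosis genes. It called 0 of 15 genes of haemostasis and vessel tone, and of 18 basement membrane genes *Lama5* alone. Over all genes 1.53% were called higher and 0.885% lower there, and these ovaries hold all cell types.

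Interferon genes had other ratios in unselected barcodes than in endothelial cells. Of 20 with enough UMIs 0 were counted in either direction in the 722 cells, with a median log2 ratio of -0.13, and over all 888 barcodes *Cxcl10* alone of 21 was counted. Their summed level was 3199, 3288, 2974 and 3399 CPM in endothelial cells and 1299.99, 1973, 1352 and 1326 CPM in unselected barcodes. The level was thus higher in endothelial cells than in the rest in all 4 libraries, and in the rest it was highest in irradiated WT. In the same unselected barcodes the 6 epithelial markers summed to 167, 328, 203 and 186 CPM and the 8 macrophage markers to 39.3, 60.2, 40.7 and 31.2 CPM, both also highest in irradiated WT. The part of these cells in the interferon level was not tested. *Isg15*, a small modifier induced by interferon, was at 74.7, 68.3, 67.5 and 99.6 CPM, a WT ratio of 0.915 (0.769 to 1.09), while its ratio in unselected barcodes was 13.5 (12.5 to 14.6). *Cxcl10*, a chemokine of the same pathway, was at 57.6, 81.2, 92.5 and 120.01 CPM, with ratios of 1.41 (1.18 to 1.69) in endothelial cells and 9.05 (8.61 to 9.53) in the rest. Whether these ratios differ beyond the spread between animals was not tested, as there was 1 library per condition. In whole ovaries edgeR called 0 of 33 interferon genes after irradiation in WT (8 at an unadjusted p under 0.05, 31 positive, median log2 difference 0.54, lowest adjusted p = 0.0812) and 0 of 33 in *Chek2*-/- (0 at an unadjusted p under 0.05, 31 positive, median 0.38). In *Chek2*-/- the 33 genes summed to 606, 664 and 864 CPM (lowest, median and highest library) without irradiation. With irradiation they summed to 602, 643 and 1823 CPM. The median was thus not higher, and the highest irradiated library lay far above it. The part of that library in the positive differences was not tested. The WT sums were 617, 687.5 and 1062 CPM without and 741, 915 and 1213 CPM with irradiation.

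Some genes are named by the study for its own endothelial cluster, so they are not independent of these cells. *Bax* and *Cdkn1a* are given above. *Gas6*, the ligand of the TAM receptors, was at 71.3, 155, 67.5 and 88.7 CPM with a WT ratio of 2.16 (1.86 to 2.53) and was at 801, 1068, 908 and 849 CPM in unselected barcodes. *Gm10076*, annotated only as a predicted gene, was at 513, 317, 199.9 and 117 CPM. Its WT ratio of 0.619 was 0.570 in unselected barcodes, so it was lower in the whole library. *Jun*, a subunit of the AP-1 factor, was at 429, 504, 1169 and 693 CPM.

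By size alone, the 5 largest WT ratios in the 722 cells were those of *Ccl21a* (5.71), *Cdkn1a* (5.09), *Gm42047* (3.47), *Ccng1* (2.84) and *Mmrn1* (2.77). *Ccl21a* and *Mmrn1* were carried by the lymphatic-like cells, 2 in WT nonIR and 3 in WT IR. Among the smallest were those of the histone gene *Hist1h2ap* (0.201), the globin gene *Hbb-bs* (0.444), *Polr2l* (0.502) and the oocyte gene *Ooep* (0.530). Of these *Hbb-bs* and *Ooep* are markers of other cell types, whose summed levels moved with them as given above.

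Irradiated *Chek2*-/- endothelial cells had more of the vessel peptides *Apln* and *Adm* and less of *Jun*, *Klf2*, *Id1* and *Id3* than unirradiated ones. Over all 888 barcodes 299 of 6489 genes were counted, 89 higher (1.37%) and 210 lower (3.24%), and over the 722 cells 64 of 4769, 36 higher (0.755%) and 28 lower (0.587%). Of the 64, 37 were also counted in the same direction over all barcodes. The ratios are of UMIs summed over all subclusters, whose mix differed between these libraries. The dividing subcluster 2 held 21.2% of the cells in *Chek2*-/- nonIR and 28.4% in *Chek2*-/- IR, and subcluster 1 held 50.3 and 36.2%. The part of this mix in the ratios was not tested. *Apln*, a peptide of tip cells that signals through *Aplnr*, was at 50.9, 70.0, 44.5 and 94.7 CPM, a ratio of 2.12 (1.73 to 2.64) in *Chek2*-/- and 1.37 (1.13 to 1.67) in WT. *Adm*, the vasodilator adrenomedullin, was at 9.45, 15.0, 25.04 and 46.6 CPM, with a *Chek2*-/- ratio of 1.86 (1.399 to 2.50). These were the 2 of 4 tip cell genes with enough UMIs that were counted as higher, of which *Adm* had under 100 UMIs in *Chek2*-/- nonIR and passed the filter through *Chek2*-/- IR. Of 14 DNA replication genes *Mcm4* (1.51) and *Uhrf1* (1.63) were higher, whereas over all 888 barcodes 0 of 15 were higher and *Uhrf1* was lower (0.503).

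Lower in irradiated *Chek2*-/- cells were *Jun* (0.592 (0.562 to 0.6248)) and *Klf2* (0.664 (0.624 to 0.705)), the 2 of 20 immediate early genes that were counted. Of 21 over all 888 barcodes, *Jun* and *Gadd45b* were lower and *Nr4a1* higher. *Klf2*, a transcription factor that blood flow induces in endothelium, was at 830.1, 848, 842 and 559 CPM and had a ratio of 0.733 in unselected barcodes. *Id1* and *Id3*, targets of BMP9 and ALK1 signalling, were the 2 of 10 in their list that were counted, against 0 of 10 over all 888 barcodes. *Id1* was at 208, 214, 275 and 155 CPM, with a ratio of 0.564 (0.504 to 0.631), and *Id3* at 421, 439.5, 614 and 405 CPM, with a ratio of 0.660 (0.614 to 0.709). In unselected barcodes the ratios were 0.787 and 0.963. Of 8 heat shock genes *Hmox1* was lower (0.665), and over all 888 barcodes 0 of 9 were counted. In whole ovaries of *Chek2*-/- females edgeR called 0 of 8 tip cell and 0 of 23 immediate early genes after irradiation. It also called 0 of 16 BMP and ALK1, 0 of 19 DNA replication and 0 of 11 heat shock genes. Over all genes 0.0112% were called higher and 0% lower there, and these ovaries hold all cell types. The 5 largest ratios were those of *Hbb-bs* (2.82), *Apln*, *Nav2* (1.90), *Adm* and *Malt1* (1.82), and the 5 smallest those of *Gap43* (0.431), *Scn3a* (0.434), *Thy1* (0.448), *Txnip* (0.477) and *Lyve1* (0.480).

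The unirradiated genotypes were compared in the same way. *Chek2* itself was at 14.9, 14.3, 6.95 and 7.52 CPM (49, 60, 20 and 25 UMIs) in the 722 cells, a *Chek2*-/- over WT ratio of 0.473 (0.262 to 0.798), and at 10.7, 10.4, 3.54 and 3.74 CPM in unselected barcodes. Over all 888 barcodes 909 of 7411 genes were counted in *Chek2*-/- nonIR against WT nonIR, 221 higher (2.98%) and 688 lower (9.28%), or 312 higher and 571 lower with TMM scaling, and over the 722 cells 126 of 4716, 82 higher (1.74%) and 44 lower (0.933%). Of the 126, 67 were also counted in the same direction over all barcodes. This comparison shares its libraries with both irradiation comparisons, so a library that stood apart would enter several of them.

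*Cxcl1*, *Cxcl10* and *Icam1* of the list of endothelial activation were higher in unirradiated *Chek2*-/- cells. The list has 18 genes, of which 5 had enough UMIs, 3 were counted as higher and 0 as lower, against 1.74% higher over all genes. *Icam1*, which leukocytes bind when they leave the blood, was at 137, 179, 239.6 and 214 CPM, a ratio of 1.75 (1.55 to 1.98), and was found in 22.9, 26.3, 50 and 37.0% of cells thinned to 4000 UMIs. In unselected barcodes its ratio was 1.10. *Cxcl1* had a ratio of 2.06 (1.67 to 2.54) in endothelial cells and 1.84 in the rest. Between the irradiated libraries the difference was under 1.5-fold for both genes. *Chek2*-/- IR was at 214 against 179 CPM in WT IR for *Icam1*, and at 100.8 against 86.7 CPM for *Cxcl1*. No interval was made for this pair of libraries.

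Of 20 immediate early genes *Jun* and *Atf3* were higher, and over all 888 barcodes 9 of 21 were. *Atf3* had under 100 UMIs in WT nonIR and passed the filter through *Chek2*-/- nonIR. *Jun* had a ratio of 2.72 (2.56 to 2.90) in endothelial cells and 0.996 (0.990 to 1.00) in unselected barcodes. *Atf3*, a stress-induced factor, was at 29.3, 36.1, 85.5 and 65.3 CPM, with ratios of 2.91 (2.30 to 3.74) and 1.27. Such genes are known to respond to tissue dissociation. With 1 pool per condition, genotype and differences in handling between pools cannot be told apart in these libraries. *Sox18* was higher (1.56 (1.41 to 1.73)) and so was the arterial connexin gene *Gja4* (1.70 (1.34 to 2.17)), at 35.3, 50.9, 60.2 and 89.9 CPM. *Vwf* was lower (0.657 (0.546 to 0.787)), and *Aplnr*, the receptor for *Apln*, was at 563, 437, 413 and 427 CPM, a ratio of 0.734 (0.682 to 0.790) that was under 1.5-fold. Among the smallest ratios were those of *Hist1h2ap* (0.192), *Gm10076* (0.390), *Ccdc85b* (0.495) and *Ptn* (0.507), and those of *Hist1h2ap*, *Gm10076* and *Ccdc85b* were 0.258, 0.412 and 0.481 in unselected barcodes.

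The largest ratios of all belonged to lymphatic genes and rested on few cells. *Lyve1*, a hyaluronan receptor of lymphatic endothelium, was at 4.27, 43.7, 216 and 103 CPM (14, 183, 620 and 344 UMIs), and *Prox1* at 7.01, 25.8, 100.8 and 76.4 CPM. *Ccl21a*, the chemokine that draws dendritic cells into lymphatics, was at 55.5, 317, 962 and 688 CPM. Of 5 lymphatic genes with enough UMIs 5 were higher in *Chek2*-/- nonIR than in WT nonIR, with ratios of 48.8 for *Lyve1*, 17.3 for *Ccl21a*, 14.1 for *Prox1*, 10.3 for *Mmrn1* and 2.17 for *Flt4*. All but *Flt4* had under 200 UMIs in WT nonIR and had enough only through *Chek2*-/- nonIR, so the filter fixed most of this count. *Scn3a* (29.9) and *Gap43* (12.2) were next. Nearly all *Lyve1* UMIs came from the 14 lymphatic-like cells, with 10 of 14, 182 of 183, 616 of 620 and 344 of 344 in the 2, 3, 5 and 4 such cells of the 4 libraries. Single cells carried up to 9, 95, 198 and 252 *Lyve1* UMIs, and the deepest lymphatic-like cells had 27395, 73405, 107611 and 115006 UMIs in all. With 2 to 5 such cells per library, the ratios of these genes combine the number of cells that met the rule, their depth and their level. These cannot be told apart with so few cells.

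Within the lymphatic-like cells the 7 lymphatic genes summed to 7009, 14692, 11283 and 13957 CPM, and in the rest of the 722 cells to 74.3, 74.4, 71.2 and 83.4 CPM. The level outside the 14 cells thus varied little between the 4 libraries. In WT IR against WT nonIR 2 of 3 lymphatic genes with enough UMIs were counted as higher, and in *Chek2*-/- IR against nonIR 3 of 6 (*Lyve1*, *Mmrn1* and *Reln*) as lower (2 of 7, *Lyve1* and *Reln*, over all 888 barcodes), resting on the same 14 cells. As the mean CPM of single barcodes over all 888, *Mmrn1* changed direction in WT, as given in the last section.

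Ordered by role, the counts for signalling systems of the vessel wall in the 722 cells are read beside the shares over all genes. Those shares were 0.598% higher and 0.598% lower in WT after irradiation, and 0.755 and 0.587% in *Chek2*-/-. Between the genotypes they were 1.74 and 0.933%. Counts of 0 in lists this short are near such shares and are a description. In the VEGF system (6 of 10 genes with enough UMIs) 0 were counted after irradiation in either genotype, and *Flt4* alone between the genotypes, through the lymphatic-like cells. In the angiopoietin and Tie system 0 of 3 were counted in any comparison, with *Tie1*, a rule gene, at 282, 264, 266 and 303 CPM. In the Notch pathway 0 of 7 and among genes of junctions and caveolae 0 of 16 were counted in any comparison, with claudin 5 at 1128, 1199.9, 1062 and 1205 CPM and *Pecam1*, an adhesion molecule at the borders between cells, at 541, 509, 547 and 572 CPM. These are rule genes too, whose presence in every library follows from the selection. Among 10 BMP and ALK1 genes 0 were counted in WT after irradiation or between the genotypes. Of the endothelial transcription factors 0 of 20 were counted in WT and *Klf2* alone of 18 in *Chek2*-/-. Of the genes of damage signalling, a list of kinases, p53 family factors and their partners, 0 of 5, 0 of 3 and 0 of 3 were counted in the 3 comparisons, and over all 888 barcodes *Trp63* alone of 8 was lower in WT. Of 11 genes of the BCL2 family and caspases *Bax* alone was counted in WT (*Bax* and *Bbc3* of 13 over all 888 barcodes). Capillary genes gave 0 of 3 in each comparison, and arterial genes 0 of 5 after irradiation in either genotype. More members of these lists were counted as higher over all 888 barcodes between the unirradiated genotypes, namely *Nrp2* and *Flt4* of 7 VEGF genes, *Eng* and *Id3* of 11 BMP and ALK1 genes, *Cav2* of 16 genes of junctions and caveolae and 6 of 21 transcription factors. Over all genes 2.98% were counted as higher there.

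The 24 libraries of whole ovaries allowed tests, on cells of other animals than those the rule selected. They held 17824920 to 32605519 counts, and 26790 genes were fitted with edgeR's quasi-likelihood test, a call being an adjusted p of at most 0.05. In bulk RNA fewer endothelial cells and less RNA per cell cannot be told apart. After irradiation 1.53% of genes were called higher and 0.885% lower in WT, and 0.0112% and 0% in *Chek2*-/-. *Chek2*-/- nonIR differed from WT nonIR at 3.12% of genes called higher and 2.22% lower. The interaction, the *Chek2*-/- response minus the WT response, was called at 0.34% higher and 0.694% lower. *Chek2* was at 19.8, 22.5 and 24.6 CPM (lowest, median and highest library) in WT nonIR and 2.88, 3.72 and 4.44 CPM in *Chek2*-/- nonIR, so the genotype groups did not overlap.

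None of the 40 endothelial identity genes was called after irradiation in whole ovaries. The 40 endothelial genes summed to 1519, 1617 and 1697 CPM (lowest, median and highest of 6 libraries) in WT nonIR and to 1480.0, 1644 and 1713 CPM in WT IR. The *Chek2*-/- values were 1485, 1624 and 2176 CPM without and 1551, 1658 and 1856 CPM with irradiation. The 4 groups overlapped. By edgeR 0 of the 40 genes were called in WT (3 at an unadjusted p under 0.05, 23 positive, median log2 difference 0.02) and 0 in *Chek2*-/- (1 at an unadjusted p under 0.05, 29 negative, median -0.04), and 0 for the interaction (1 at an unadjusted p under 0.05). DESeq2 called 0 in WT and 0 in *Chek2*-/-. Over all genes edgeR called 1.53% higher and 0.885% lower in WT, and 0.0112% and 0% in *Chek2*-/-. A count of 0 among 40 is near these shares. It covers identity genes only and not the p53 targets described above.

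Between the unirradiated genotypes *Aplnr* was the 1 of 40 called. Over all genes 3.12% were called higher and 2.22% lower, so this count is near the share of all genes. *Aplnr* was at 29.3, 31.4 and 33.5 CPM in WT nonIR and 35.8, 40.2 and 57.3 CPM in *Chek2*-/- nonIR, and every *Chek2*-/- library lay above every WT library (log2 difference 0.44, SE 0.09, adjusted p = 0.00486 by edgeR). This was the opposite direction to the ratio of 0.734 in the single-cell libraries. Of the 40 genes 33 had a positive difference, with a median log2 difference of 0.12 against 0.01 over all genes. In the same comparison markers of other cell types had median log2 differences of -0.34 for 7 granulosa genes (*Kitl* called higher), -0.23 for 6 stroma genes (*Col1a1* and *Col1a2* called lower), -0.55 for 6 smooth muscle genes (0 called), 2.32 for 6 erythroid genes (0 called) and -0.02 for 5 pericyte genes outside the rule (*Cspg4* and *Notch3* called lower), and *Chek2*-/- nonIR replicate 6 had a summed endothelial level of 2176 CPM against 1485 to 1658 CPM in the other 5. The part of cell composition and of *Chek2*-/- nonIR replicate 6 in the 33 positive differences was not tested. The 6 erythroid genes summed to 222, 462 and 926 CPM (lowest, median and highest library) in WT nonIR. In *Chek2*-/- nonIR they summed to 198, 641 and 10440 CPM. The groups thus overlapped, and the highest *Chek2*-/- library lay far above the median of its group. *Vwf* was at 18.1, 19.96 and 22.0 CPM in WT nonIR and 12.4, 15.7 and 17.1 CPM in *Chek2*-/- nonIR, without overlap (log2 difference -0.39, SE 0.11, adjusted p = 0.0316). It was lower in the single-cell library too, at a ratio of 0.657. *Icam1*, which stroma also expresses, was at 18.6, 27.8 and 36.6 CPM and 34.0, 42.2 and 63.8 CPM, with overlapping groups (log2 difference 0.80, SE 0.21, adjusted p = 0.0256). *Cxcl1* was at 2.65, 4.20 and 7.90 CPM and 10.3, 12.5 and 48.0 CPM (log2 difference 1.96, SE 0.37, adjusted p = 0.00442). *Icam1* and *Cxcl1* had ratios above 1.5 in the endothelial cells of the single-cell libraries, measured in other animals. In unselected barcodes *Cxcl1* was also counted as higher, and *Icam1* was not. With depth made equal, 7.57% of unselected barcodes had an *Icam1* UMI in WT nonIR and 7.54% in *Chek2*-/- nonIR. Whole ovaries hold all cell types, so these bulk calls do not apply to endothelial cells as such. *Cxcl10* (log2 difference 0.49, SE 0.75, adjusted p = 0.773) and *Sox18* (log2 difference 0.07, SE 0.09, adjusted p = 0.749), higher in the single-cell library, were not called.

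Other vascular genes went either way between the unirradiated genotypes in whole ovaries, and all 23 immediate early genes had a positive difference. *Gja4*, at a ratio of 1.70 in endothelial cells, was lower in *Chek2*-/- ovaries (log2 difference -0.43, SE 0.12, adjusted p = 0.0411). It was also at 196 CPM in oocyte-led and at 35.7, 17.5, 20.1 and 27.8 CPM in unselected barcodes, and the part of those cells in the bulk value was not tested. Of the 7 lymphatic genes 0 were called, and *Lyve1* was at 2.08, 3.25 and 4.49 CPM in WT nonIR and 0.384, 1.93 and 3.94 CPM in *Chek2*-/- nonIR (log2 difference -0.57, SE 0.39, adjusted p = 0.426). The direction was thus the reverse of the single-cell ratio of 48.8, and the groups overlapped. Of 23 immediate early genes 11 were called higher in *Chek2*-/- nonIR and 0 lower, among them *Atf3* (log2 difference 1.15, SE 0.21, adjusted p = 0.00371), while *Jun* was not (log2 difference 0.09, SE 0.17, adjusted p = 0.826). *Id3* (log2 difference -0.39, SE 0.11, adjusted p = 0.0456) and *Mmp2* (log2 difference -0.31, SE 0.08, adjusted p = 0.0319) were lower, and *Nrp1*, a co-receptor of VEGF (log2 difference 0.33, SE 0.09, adjusted p = 0.0257), and *Foxf1*, a vascular transcription factor (log2 difference 0.57, SE 0.14, adjusted p = 0.0180), were higher. In the vascular lists *Vegfb*, *Notch3*, *Plat* and *Nid2* were also called lower and *Bmp4*, *Smad5*, *Hes1*, *Cav2* and *F3* higher.

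For p53 targets the whole ovary gave the test that the single-cell libraries could not. In WT 26 of 37 were called higher and 0 lower, in *Chek2*-/- *Ccng1* and *Eda2r* higher and 0 lower, and for the interaction 23 lower. In *Chek2*-/- 28 were positive and 10 had an unadjusted p under 0.05 by edgeR, with a median log2 difference of 0.08. In WT these values were 35, 29 and 0.60. The 37 genes summed to 1368 to 1422 CPM in *Chek2*-/- nonIR and 1452 to 1539 CPM in *Chek2*-/- IR, without overlap. The WT sums were 1316 to 1373 and 2249 to 2314 CPM. Of the 8 that were higher in irradiated WT endothelial cells, 7 were called for the interaction, with *Aen* the exception (WT log2 difference 0.02, SE 0.06, adjusted p = 0.977). *Cdkn1a* was at 22.0, 25.2 and 36.6 CPM in WT nonIR and 75.5, 87.2 and 104 CPM in WT IR, without overlap (log2 difference 1.67, SE 0.13, adjusted p = 2.48e-09). The *Chek2*-/- groups were at 31.8, 39.7 and 43.0 CPM and 37.3, 48.7 and 59.0 CPM, with overlap (log2 difference 0.31, SE 0.12, adjusted p = 0.999), and the interaction was called (log2 difference -1.36, SE 0.18, adjusted p = 5.36e-05). These ovaries hold all cell types, so the test does not apply to endothelial cells as such. Of the vascular lists, *Jag1*, a Notch ligand (log2 difference -0.41, SE 0.09, adjusted p = 0.00786), and *Lama5*, a laminin chain (log2 difference 0.58, SE 0.13, adjusted p = 0.00864), were called in WT after irradiation, and so was the pericyte rule gene *Ndufa4l2* (log2 difference 0.89, SE 0.17, adjusted p = 0.00197).

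**Figure D5:**
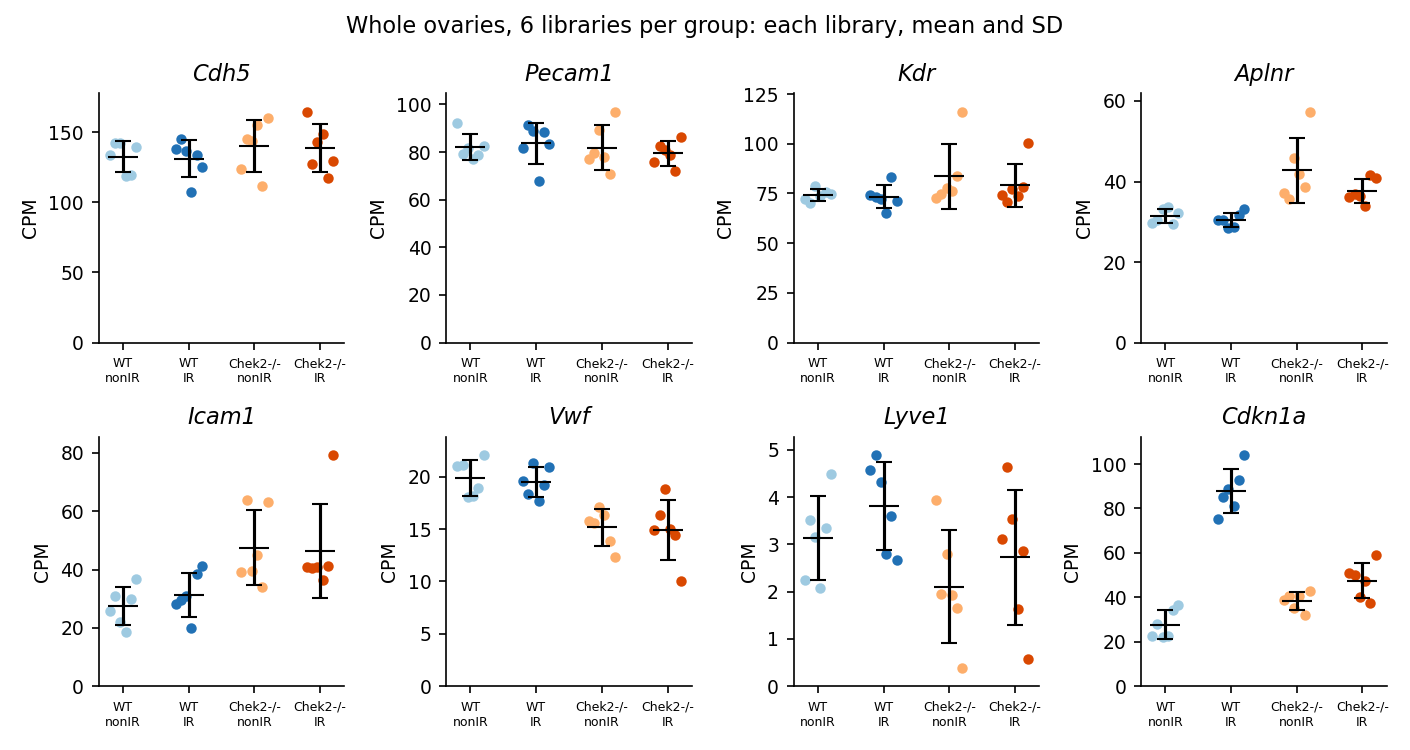
CPM in whole ovaries (y axis, from 0) of 8 genes in the 4 conditions (x axis), each point 1 of 6 libraries, with the mean (long dash) and SD. *Cdh5*, *Pecam1* and *Kdr* overlap between all conditions, *Aplnr* is higher and *Vwf* lower in *Chek2*-/- nonIR than in WT nonIR without overlap, and *Cdkn1a* separates WT IR from WT nonIR.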

How the data were processed

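The single-cell files hold whole-number UMI counts per gene and barcode as deposited, made by the authors with Cell Ranger on mm10 from pooled ovaries dissociated with collagenase, DNAse and trypsin. The bulk table holds estimated counts per gene, made by the authors with Salmon (1.3.0) after trimming with Trim Galore (0.6.5), per the submitters' processing notes, and these were rounded here. Of its rows, 44152 of 44674 carried a gene symbol.

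The members and gene lists were chosen with earlier results of these data known. UMIs were summed over cells of a library and scaled to CPM. No p-value was made from cells. Barcodes were clustered with Leiden (scanpy 1.11.5, 2000 variable genes, 30 principal components, 15 neighbours, resolution 0.5), and a subcluster was called led by another type when the median fold of that type's markers over the other members was at least 5. Doublets were called with Scrublet and kept. The study's own filters on doublets and on ribosomal UMIs over 50% were not repeated (0 members exceeded 50%). Bulk genes with at least 10 counts over the 24 libraries were fitted with edgeR (4.0.16) quasi-likelihood, TMM and 1 coefficient per group, with Benjamini-Hochberg adjustment over all genes. Alternatives were DESeq2 (1.42.0), other filters and scalings, and leaving out libraries. Each bulk RNA sample came from paired ovaries, per the study's methods, and the labels name no animals, so p-values measure the spread between these samples. The named genes were those of the lists, those the study names for its endothelial cluster, the 5 largest and 5 smallest ratios, the 10 most endothelial genes, the leading genes of subclusters and *Chek2*. Some of these are not reported here. The edgeR fit, the counting interval of a ratio and the TMM factor were tested on simulated data. Sequences are from RefSeq (GRCm38.p6).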

Additional observations from a re-analysis of the deposited data

Results flagged for a closer look

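Bulk libraries that stood apart from the other 5 of their group were found for endothelial genes in 17 of 164 tests by Dixon's test at the 95% level, where chance gives about 1 in 20. In *Chek2*-/- nonIR replicate 6 the summed level of the 40 endothelial genes was 2176 CPM, against 1485 to 1658 CPM in the other 5. Of single genes, that library had *Adgrl4* at 18.13 (10.99 to 13.05 CPM in the other 5), *Cd93* at 165.4 (108.1 to 126.6), *Esam* at 53.21 (28.28 to 34.74), *Fli1* at 24.13 (15.86 to 18.06) and *Kdr* at 116 (72.63 to 83.93). It also had the semaphorin receptor gene *Plxnd1* at 260.9 (181 to 200.5), *Shank3* at 51.44 (36.75 to 42.2) and the arterial factor *Sox17* at 13.22 (5.089 to 7.54). All of these were higher than in the other libraries, and the part of dissection or RNA yield was not tested. *Kdr* in *Chek2*-/- IR replicate 6 was at 100.6 CPM against 70.7 to 78.

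In WT nonIR replicate 1 *Pecam1* was at 92.24 CPM (77.1 to 82.75 in the other 5), the angiopoietin receptor gene *Tek* at 17.76 (14.08 to 15.13) and *Adgrl4* at 13.38 (11.2 to 11.79). The blood and endothelial factors *Lyl1* and *Tal1* stood apart in WT IR replicate 3, at 10.01 CPM (0.9181 to 1.209) and 5.604 CPM (2.069 to 3.189). *Tal1* was at 5.955 CPM in *Chek2*-/- nonIR replicate 5 (2.719 to 3.727) and *Lyl1* at 5.138 CPM in *Chek2*-/- IR replicate 2 (1.287 to 1.698).

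Of the 8 p53 targets that were higher in irradiated WT endothelial cells, 7 differed between the genotypes in their response in whole ovaries by the interaction term of edgeR. Its log2 values were -1.47 for *Ccng1*, -1.36 for *Cdkn1a*, -1.06 for *Exoc4*, -0.85 for *Phlda3*, -0.50 for *Ckap2*, -0.48 for *Bax* and -0.36 for *Ei24*. The adjusted p-values ranged from 8.12e-13 to 0.00558.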

How the results depend on the processing

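Leaving out the 4 subclusters led by another cell type, chosen after seeing the data, moved the endothelial shares to 1.93, 2.35, 1.66 and 1.54%. In WT IR the share was 3.25% with at least 3 rule genes and 2.55% with at least 5. The other share alternatives moved it by less than its counting interval. The counts of genes past 1.5-fold over all barcodes (632 in WT after irradiation, 299 in *Chek2*-/- after irradiation and 909 between the unirradiated genotypes) became 986, 590 and 1421 with at least 100 UMIs, 253, 92 and 383 with at least 500, and 126, 99 and 256 at 2-fold. Without the 4 subclusters they were 64, 64 and 126, without the oocyte-led one 139, 121 and 144, and without barcodes over 60000 UMIs 91, 100 and 88, all 3 settings chosen after seeing the data. Requiring 5 rule genes gave 206 (148 higher and 58 lower) in WT, 283 (87 and 196) in *Chek2*-/- after irradiation and 219 (135 and 84) between the genotypes. The mean CPM of single barcodes gave 543 in WT, 496 between the genotypes, and 163 higher and 79 lower in *Chek2*-/- after irradiation. Without the oocyte-led barcodes 96 were higher and 43 lower in WT, and 84 and 37 in *Chek2*-/-. There were 113 values of 1 gene in 1 comparison, single-cell ratios apart from the bulk difference of *Aplnr* between the genotypes. Of their 689 recomputed values, 434 stayed the same, 241 moved and 14 changed direction. A ratio stayed the same if it moved by less than its interval. The bulk difference did so if it kept its sign and an adjusted p of at most 0.05 by the test used. On the log2 scale the 14 were, in WT, *9930012K11Rik* (-0.35 without the 4 subclusters, -0.059 without the oocyte-led one), *Akr1c18* (-0.84), *Crabp1* (0.44 with 5 rule genes, 1.24 without the oocyte-led barcodes), *Ddb2* (0.13 and 0.15 likewise), *Epha2* (-0.16 as mean CPM) and *Mmrn1* (-0.20 as mean CPM). In *Chek2*-/- they were *Aen* (0.017 without the oocyte-led barcodes, 0.080 as mean CPM), *Amh* (-0.28 without the 4 subclusters) and *Npm2* (0.26 without the oocyte-led barcodes), and between the genotypes *Rhd* (0.19 without the 4 subclusters). The cause was not tested. Clustering at resolutions of 0.3 and 0.8 gave 9 and 11 subclusters.

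In bulk a minimum log2 difference of 1 left 288 calls in WT, 1 in *Chek2*-/-, 211 between the genotypes, 167 for the interaction and 0 of the 40 endothelial genes between the genotypes. DESeq2 called 14 in *Chek2*-/-, 2507 between the genotypes, 458 for the interaction and 2 endothelial genes between the genotypes. Leaving out 1 replicate gave 516 to 657 calls in WT, 2 to 4 in *Chek2*-/-, 221 to 323 for the interaction and 573 to 1794 between the genotypes, with 573 without WT nonIR replicate 4, 675 without replicate 2, 716 without replicate 3 and 807 without *Chek2*-/- nonIR replicate 1. It gave 1 or 2 endothelial genes between the genotypes, 2 without *Chek2*-/- nonIR replicate 5, and 0 after irradiation in both genotypes. Nothing in the labels says that a replicate number marks a shared litter or day, and the deviations of same-numbered libraries correlated at over 0.1 in 6 of 36 pairs (-0.101 to 0.418), so the numbers were not taken to pair libraries. As a hint from the data and not the design, 12 of 24 libraries correlated best with one of their own number, although most candidates in other groups carried another number. The median correlation was 0.0394 for pairs of the same number and -0.00828 for pairs of other numbers. Whether the main fit leaves out a factor shared by number was not tested. A replicate block gave 2025 calls (1430 in the main fit) and 2 endothelial genes between the genotypes, 4 calls in *Chek2*-/- and 281 for the interaction. With 1 library per condition and 141 to 243 endothelial cells in each, differences between single-cell libraries cannot be told from differences between pools, and genes under 200 UMIs were not counted as higher or lower.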
